A study of Mus musculus with 40 samples.

Results

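Macrophages are the main resident immune cells of skeletal muscle, and 32 genes that macrophages, other myeloid cells and antigen presenting cells use were followed here through 12 groups of mouse muscle libraries. The genes were taken from a written list by name, drawn up with earlier results of these data known, and all 32 were found among the 23621 genes of the deposited table. All 32 passed the filter on low counts in both muscles. The lowest count of any of them in a library was 8, for Ccl2 in sedentary quadriceps at ZT12.

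The study asked how exercise and time of day act on the muscle of C57BL/6 mice. Time is given as zeitgeber time (ZT), in hours, where ZT0 is the time of lights on and ZT12 that of lights off. Quadriceps, 3 libraries a group, came from sedentary mice at ZT0, ZT4, ZT12 and ZT16 and from mice that ran on a treadmill to exhaustion. Those mice were sampled at once (+0h, labelled ZT0.5 or ZT12.5) or 3 h later (+3h, labelled ZT3.5 or ZT15.5), after a session at ZT0 or at ZT12. Gastrocnemius, 4 libraries a group, came at ZT4 and ZT16 from mice with access to a running wheel during the night or during the day. No gastrocnemius group was sedentary. The labels give no age or sex for any group, and each muscle was frozen whole, so every value is a mixture over fibres and all other cells. In such bulk samples fewer cells of a type and less RNA per cell cannot be told apart.

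Monocytes enter tissue from blood by following the chemokine Ccl2 through its receptor Ccr2, and both monocytes and macrophages depend on the growth factor receptor Csf1r. Resident macrophages carry scavenger and lectin receptors such as Mrc1, Cd163, Lyve1 and Folr2, make the C1q subunits of complement, and digest what they take up in lysosomes. Such genes need not be limited to macrophages, and the cells that gave their values in whole muscle were not identified. Antigen presenting cells load peptides onto class II molecules (H2-Aa, H2-Ab1 and H2-Eb1, with the invariant chain Cd74), whereas all nucleated cells load class I molecules with peptides that the Tap1 transporter brings into the endoplasmic reticulum.

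Totals ran from 27352875 to 79491649 counts per library. The labels call the tissue skeletal muscle, and its defining fast fibre genes led by Myh4 summed to between 144296 and 217062 CPM in every quadriceps library, where CPM is a gene's count relative to the TMM-scaled total of its library. The 5 macrophage markers (Adgre1, Cd68, Csf1r, C1qa and Mrc1, all of them members) summed to between 45.99 and 100.5 CPM in quadriceps and between 30.37 and 64.68 CPM in gastrocnemius, and none was at 0 in any group. A few libraries stood apart from their group over most of the 32 genes, as the plot of mean levels by library shows. Day wheel ZT16 replicate 1 was the lowest of its group for 31 of the 32, with a median deviation of -0.59 log2 from the group mean. In that library 6 of 6 mast cell markers and 8 of 9 fibroblast markers were also the lowest of the group. In quadriceps, sedentary ZT16 replicate 2 was the lowest of its group for 31 genes and +3h ZT0 replicate 3 for 29, while +3h ZT12 replicate 2 and sedentary ZT4 replicate 3 were the highest for 29 each. Calls that were lost or gained without one of these libraries are given with and without it.

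**Figure D1:**
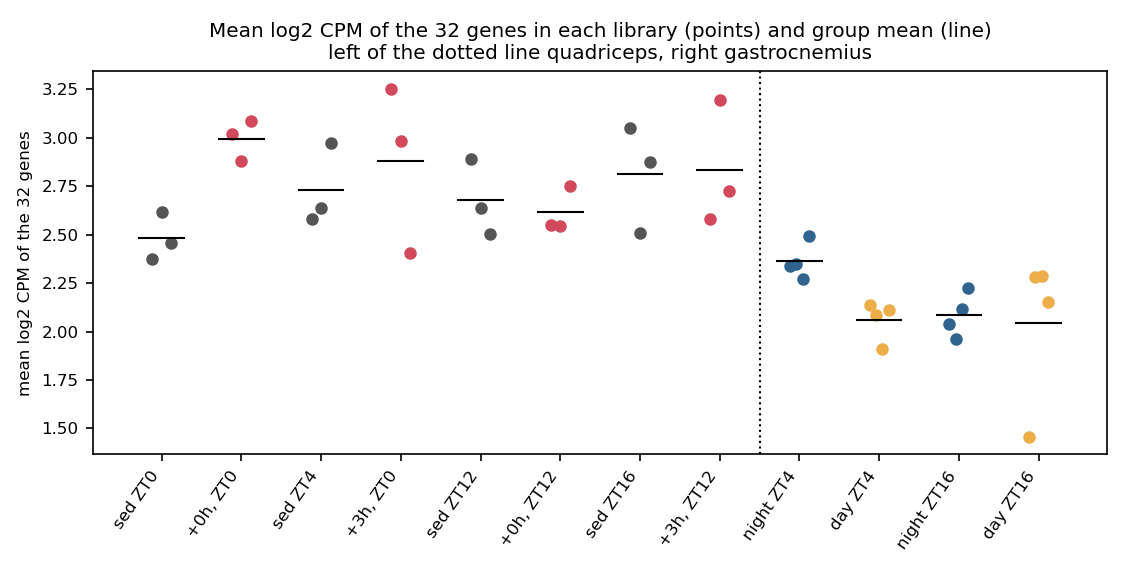
Mean log2 CPM of the 32 genes (vertical axis) in each library (points), by group (horizontal axis), with the group mean as a line; sed is sedentary, +0h and +3h are the treadmill groups with the ZT of their session, and day and night are the wheel groups. Day wheel ZT16 replicate 1, at 1.46, lies below every other library, and the 3 libraries of +0h at ZT0 (2.88 to 3.09) lie above the 3 sedentary ZT0 libraries (2.38 to 2.62).

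Per kilobase of exon, the levels of these genes in sedentary quadriceps spanned more than 2 orders of magnitude on the CPM per kb scale. The median over the 12 sedentary libraries was highest for Cd74 (37.0 CPM per kb) and for the lysozyme gene Lyz2 (36.6), which did not differ beyond their spread over libraries. H2-Aa followed at 21.7 CPM per kb, then C1qa at 17.0, H2-Ab1 at 16.3, C1qb at 15.3, C1qc at 14.5 and H2-Eb1 at 11.7, with neighbours whose ranges over libraries overlapped. The lowest were Ccr2 (0.315 CPM per kb), the high-affinity Fc receptor gene Fcgr1 (0.255) and the fractalkine receptor gene Cx3cr1 (0.106). Lyz2, Fcgr2b and Fcgr3 have closely similar relatives among which kallisto divides shared reads by a model, so their levels as single genes are uncertain.

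The first question was what a run to exhaustion did at once. After the ZT0 session, Cd14, the co-receptor that hands bacterial lipopolysaccharide to Toll-like receptors, and Fcgr3, a low-affinity receptor for immunoglobulin G, rose, and 30 of the 32 genes had a positive fold change. The members' median was 0.52 on the log2 scale, beside 0.00 over all genes tested, of which 50.1% were positive. As mean log2 CPM of the 32, sedentary ZT0 libraries read 2.376, 2.616 and 2.455, and +0h ZT0 libraries 3.021, 2.88 and 3.087. Sedentary libraries of other times reached 2.972 at ZT4, 2.892 at ZT12 and 3.053 at ZT16. Only the 2 genes named passed the test, 6.25% of the 32, where 6.82% of the 15097 genes tested passed; 19 members had an unadjusted p under 0.05, beside 22.8% of all genes. A fit of these 6 libraries alone called 12 members, beside 529 of 14401 genes tested. DESeq2 called 7 members, beside 1447 of 15097 genes. All 3 +0h libraries lay above all 3 sedentary ones for 25 members, beside 12.9% of all genes. Ccr2 lay below, which makes 26 members whose groups did not overlap, beside 24.9% of all genes.

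Among the receptors and signals, the monocyte receptor Ccr2 read 1.27, 1.31 and 0.975 CPM at +0h and 2.01, 2.01 and 2.04 CPM in sedentary ZT0 muscle. The groups did not overlap, and its log2 fold change of -0.75 ± 0.26 (SE) did not pass (adjusted p = 0.0881). Ccl2 read 0.672, 1.29 and 0.557 CPM against 0.325, 0.320 and 0.740 CPM, with overlapping groups and a log2 fold change of 0.91 (adjusted p = 0.418). Csf1r had a log2 fold change of 0.41 and Cx3cr1 of -0.18, and neither passed.

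None of the 4 leukocyte surface genes and adaptors passed, with log2 fold changes from 0.37 for Ptprc (the pan-leukocyte phosphatase CD45) to 0.56 for Laptm5, a lysosomal membrane protein of blood cells. The lowest p among them belonged to Laptm5, followed by the signalling adaptor Tyrobp (0.51). Of the Fc receptor genes, Fcgr3 read 7.35, 6.49 and 8.70 CPM at +0h and 4.19, 5.27 and 4.17 CPM in sedentary muscle. Every +0h library was above every sedentary one, and the log2 fold change was 0.71 ± 0.21 (SE, adjusted p = 0.0423). It did not pass without sedentary ZT0 replicate 1 (adjusted p = 0.177) or 3 (0.128), or without +0h ZT0 replicate 1 (0.112) or 3 (0.144). The inhibitory receptor gene Fcgr2b (0.70), the common chain Fcer1g (0.63) and Fcgr1 (0.45) had positive fold changes that did not pass.

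The complement genes C1qa, C1qb and C1qc, whose products form the recognition molecule of the classical pathway, had log2 fold changes of 0.57, 0.68 and 0.53 with adjusted p from 0.105 to 0.124. C1qb read 22.5, 19.97 and 26.2 CPM at +0h and 12.6, 15.8 and 14.4 CPM before, without overlap. Of the 7 resident macrophage genes none passed and all had positive fold changes, from 0.28 for the mannose receptor gene Mrc1 to 0.79 for the hyaluronan receptor gene Lyve1. Lyve1 read 14.7, 12.503 and 13.7 CPM at +0h against 6.45, 9.71 and 7.34 CPM in sedentary muscle. Its groups did not overlap and its adjusted p was 0.0542; without sedentary ZT0 replicate 2 it passed (0.98, adjusted p = 0.0380). Adgre1, which encodes the macrophage surface protein F4/80, had a log2 fold change of 0.61 (adjusted p = 0.106).

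Cd14 had the largest fold change of the 32. It read 7.66, 6.89 and 7.94 CPM at +0h (7.49 ± 0.545, SD, n = 3) and 1.99, 1.97 and 1.15 CPM in sedentary ZT0 muscle (1.70 ± 0.479, SD, n = 3). The groups lay far apart, the log2 fold change was 2.12 ± 0.34 (SE, adjusted p = 0.000836), and the call held without any single library of the comparison (adjusted p at most 0.00573). Lyz2 (0.42), the lysosomal protease gene Ctss (0.49) and the lysosomal glycoprotein gene Cd68 (0.39) did not pass. The 3 class II genes and Cd74 had log2 fold changes from 0.52 to 0.61 with adjusted p from 0.0608 to 0.114, and Tap1 one of 0.07. H2-Eb1 read 29.4, 22.7 and 27.4 CPM at +0h and 15.2, 19.2 and 17.6 CPM in sedentary muscle, again without overlap, and it passed without +0h ZT0 replicate 2 (0.71, adjusted p = 0.0419).

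Markers of other cells were followed in the same comparison, and of the sums given here only those of the lymphocyte markers did not overlap between groups. The 10 adipocyte markers had a median log2 fold change of 1.85, with summed levels from 1323 to 10825 CPM at +0h against 1305 to 2785 CPM in sedentary muscle. The 11 lymphocyte markers, led by Cd79b of B cells, summed to between 3.97 and 4.79 CPM against 1.19 to 1.69 CPM. The 10 neutrophil markers, led by Mmp9 in both groups, summed to between 6.55 and 11.97 CPM against 5.43 to 8.27 CPM. Camp and Ngp of that list were at 0 in every sedentary ZT0 library. Their part in the members' values was not tested, apart from a fit that carried the mean log2 level of the adipocyte markers, the adipocyte score, in which Cd14 kept its call and Fcgr3 did not. Of genes near the members in function, 4 of 46 other macrophage and myeloid genes tested rose and none fell: the transcription factor genes Cebpb (1.51 ± 0.25, SE) and Irf8 (0.82 ± 0.15), the sensor gene Tlr2 (0.76) and Ncf1 of the NADPH oxidase (0.74). Of 42 other antigen presentation genes 3 rose, namely Cd83 (2.15 ± 0.24), which marks activated dendritic cells, the lysosomal reductase gene Ifi30 (0.99 ± 0.21) and Rfxank (0.33), a class II regulator.

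After the ZT12 session Ccr2 and Tap1 fell and no member rose. The members' median was -0.04 on the log2 scale, with 12 positive fold changes, beside 49.2% of all genes. The 2 calls were 6.25% of the 32, where 4.60% of all genes tested passed. The groups did not overlap for 6 members, beside 20.2% of all genes: Cd14, Ccl2 and Lyve1 were higher in every +0h library, and Ccr2, Cx3cr1 and Tap1 were lower.

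Ccr2 read 0.849, 0.927 and 1.04 CPM at +0h and 3.10, 1.75 and 2.25 CPM in sedentary ZT12 muscle. Every treadmill library was below every sedentary one, the log2 fold change was -1.33 ± 0.26 (SE, adjusted p = 0.00360), and the call held without any single library (adjusted p at most 0.0346). Its ligand gene Ccl2 read 0.406, 0.575 and 1.12 CPM against 0.289, 0.156 and 0.167 CPM, which gave 1.77 ± 0.72 (SE, adjusted p = 0.203). Cd14 read 6.07, 5.56 and 5.82 CPM against 4.75, 2.43 and 1.67 CPM. Sedentary replicate 1 was the highest of the 3 controls; the log2 fold change was 0.98 (adjusted p = 0.101) with it and 1.50 (adjusted p = 0.0120) without it. Lyve1 read 14.1, 13.9 and 16.7 CPM at +0h and 9.34, 10.9 and 9.90 CPM in sedentary muscle, a log2 fold change of 0.57 that did not pass (adjusted p = 0.219).

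Fold changes of the 4 Fc receptor genes (0.00 to 0.19), the 3 C1q genes (0.11 to 0.13) and the leukocyte surface genes (-0.31 to 0.08) were small and did not pass. Of the resident macrophage genes Siglec1, a sialic acid receptor of macrophages, had the most negative value (-0.49, adjusted p = 0.649), and Folr2, the folate receptor gene, was at -0.03. Lyz2, Ctss and Cd68 lay between -0.05 and 0.04.

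**Figure D2:**
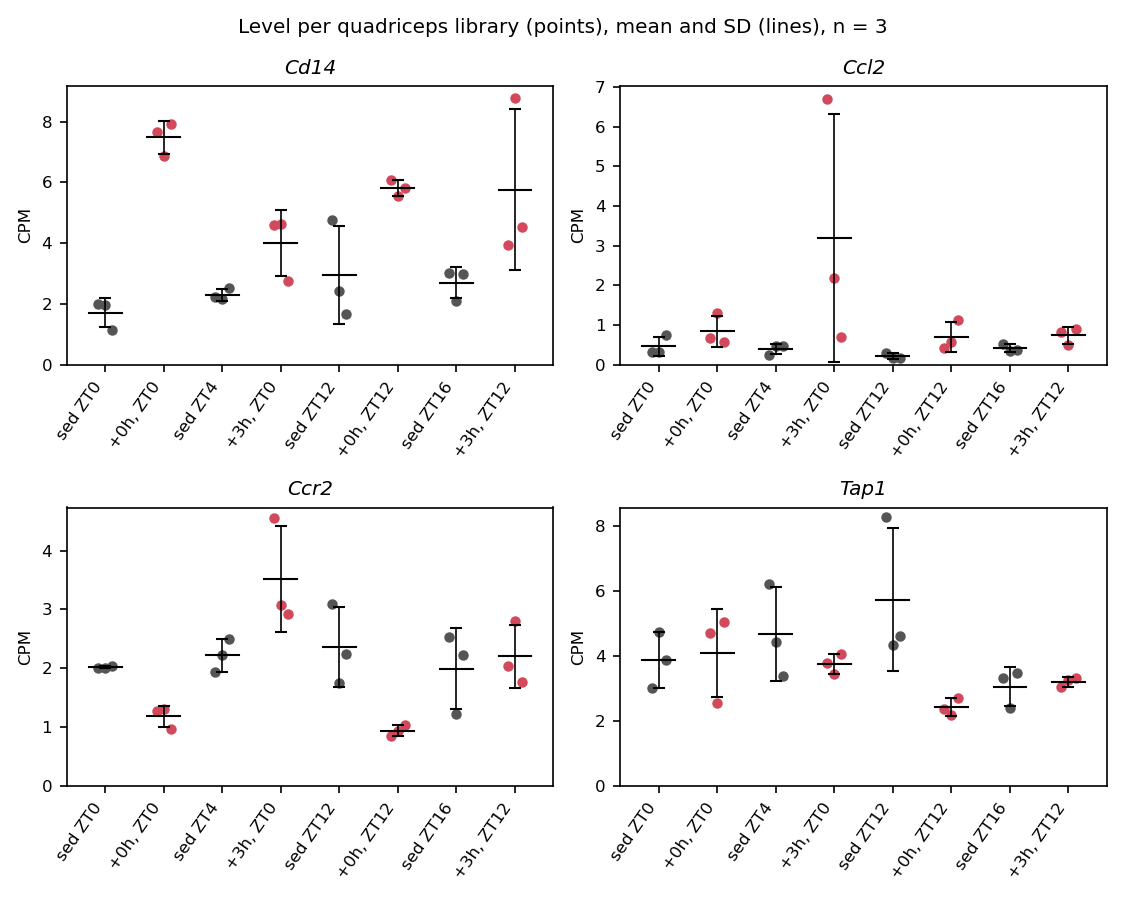
CPM (vertical axes) of Cd14, Ccl2, Ccr2 and Tap1 in each quadriceps library (points; grey sedentary, red treadmill), with the mean and SD of each group of 3 as lines; +0h and +3h groups carry the ZT of their session and stand beside their sedentary control. Ccr2 is lower in every +0h library than in every library of its control in both sessions, and the 3 Ccl2 values at +3h after the ZT0 session run from 0.703 to 6.69 CPM.

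All 6 antigen presentation genes had negative fold changes after the ZT12 session. Tap1 read 2.36, 2.17 and 2.71 CPM at +0h (2.41 ± 0.275, SD, n = 3) and 8.25, 4.34 and 4.60 CPM in sedentary muscle (5.73 ± 2.19, SD, n = 3). The groups did not overlap and the log2 fold change was -1.24 ± 0.27 (SE, adjusted p = 0.00940). It did not pass without sedentary ZT12 replicate 1, the high one (-0.89, adjusted p = 0.0869), or without +0h ZT12 replicate 2 (-1.17, adjusted p = 0.0529). H2-Aa read 24.1, 21.6 and 20.5 CPM at +0h and 40.2, 22.1 and 26.6 CPM in sedentary muscle, with overlap. The class II genes and Cd74 lay between -0.36 and -0.43 on the log2 scale (adjusted p from 0.265 to 0.365), and the costimulatory gene Cd86 at -0.35.

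Tap1 shares its start region with Psmb9, an immunoproteasome subunit gene of the other antigen presentation list, which also fell (-1.14 ± 0.27, SE, adjusted p = 0.0159). Psmb9 was at 1.492 ± 0.2896 CPM at +0h and 3.303 ± 1.295 CPM in sedentary ZT12 muscle (SD, n = 3). Whether its call rested on a single library is not given here. In GRCm38.p6 Psmb9 lies on the minus strand of chromosome 17 from 34182030 to 34187330 and Tap1 on the plus strand from 34187556 to 34197225, so 225 bases part the starts of these divergent genes. Their shared region is shown because both genes fell, and those of H2-Aa and H2-Eb1 because class II promoters are known for a conserved CCAAT element, the Y box. The windows are from RefSeq in GRCm38.p6, run 5′ to 3′ on the gene's strand from 250 bases before to 50 bases after its start, and carry CCAAT or, on the opposite strand, ATTGG in capitals. They are chr17:34187306-34187605 (plus) for Tap1, chr17:34287774-34288073 (minus) for H2-Aa and chr17:34305617-34305916 (plus) for H2-Eb1.
Tap1: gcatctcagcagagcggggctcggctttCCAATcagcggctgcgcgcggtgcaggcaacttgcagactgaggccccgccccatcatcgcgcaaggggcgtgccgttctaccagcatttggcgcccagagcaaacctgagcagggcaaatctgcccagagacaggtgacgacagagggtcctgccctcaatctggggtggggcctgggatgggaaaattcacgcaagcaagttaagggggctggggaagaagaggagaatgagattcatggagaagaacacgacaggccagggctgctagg
H2-Aa: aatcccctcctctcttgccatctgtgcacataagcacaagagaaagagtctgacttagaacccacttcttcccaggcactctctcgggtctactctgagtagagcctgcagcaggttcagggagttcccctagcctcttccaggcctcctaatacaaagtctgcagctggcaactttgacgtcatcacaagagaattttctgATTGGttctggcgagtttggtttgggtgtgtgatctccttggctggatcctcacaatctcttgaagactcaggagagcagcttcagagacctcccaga
H2-Eb1: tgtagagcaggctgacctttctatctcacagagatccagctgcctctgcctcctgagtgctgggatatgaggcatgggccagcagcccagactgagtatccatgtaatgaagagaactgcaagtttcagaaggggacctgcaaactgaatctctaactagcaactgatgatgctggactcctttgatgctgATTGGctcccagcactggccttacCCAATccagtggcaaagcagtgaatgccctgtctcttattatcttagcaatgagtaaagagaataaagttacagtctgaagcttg
The match in H2-Aa lies at -48 to -44 from the start, the 2 in H2-Eb1 at -59 to -55 and -35 to -31, and that in Tap1 at -222 to -218. Promoter windows were matched for 21 of the 32 members, 25 windows in all, searched on both strands for motifs of which none contains another. CCAAT was found in 9 of the 25, beside 37.4% of 32851 windows in the table. GAGGAA, the core bound by the myeloid factor PU.1, was in 13 of the 25 beside 28.3%. These are counts of windows, not genes: both windows of Fcgr3, which overlap and share their match, and both of F13a1 are among the 13. GAAANNGAAA of interferon response elements was in 1, that of Ctss, beside 3.44%, TGANTCA of AP-1 in 2 beside 7.81%, and CACGTG, the clock E-box, in 0 beside 7.15%.

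Of the other antigen presentation genes, Psmb9 was the only gene of 42 tested to fall and Cd83 (1.61 ± 0.24, SE) the only gene to rise, and 36 of the 42 had negative fold changes. Of the 30 interferon responsive genes 2 fell: Irf1 (-1.01 ± 0.21, adjusted p = 0.00699), a transcription factor gene, and Rsad2 (-1.13). Among the 46 other myeloid genes Irf8 (0.97), Cebpb (1.27) and Maf (0.58) rose, and Clec7a, the beta-glucan receptor gene, fell (-1.48 ± 0.31). The adipocyte markers moved the other way from the ZT0 session, with a median of -1.40 and sums from 1007 to 3710.4 CPM against 1892 to 8973 CPM. Their part was not tested beyond the fit with the adipocyte score, in which Ccr2 and Tap1 kept their calls.

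**Figure D3:**
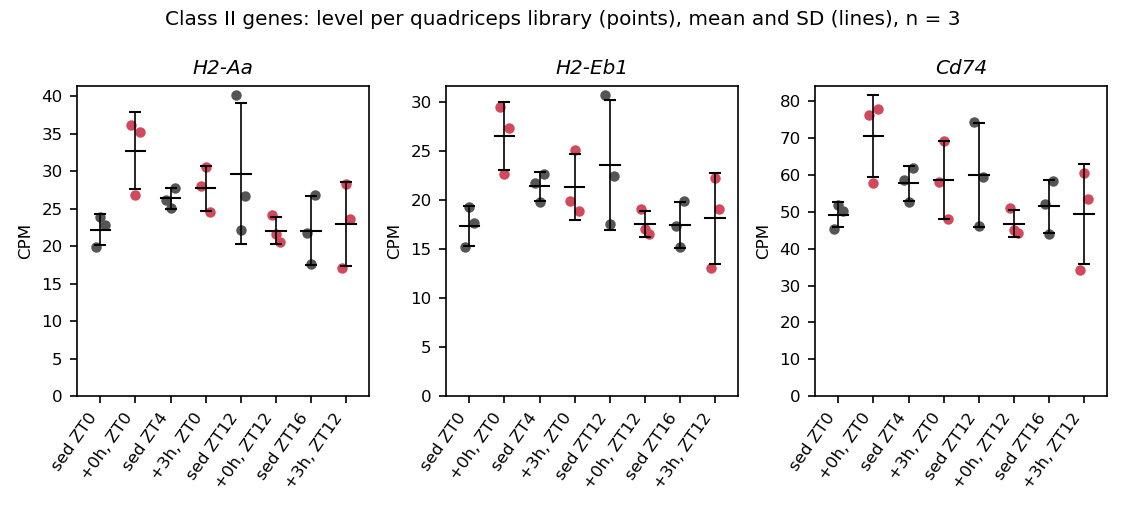
CPM (vertical axes) of the class II genes H2-Aa and H2-Eb1 and of the invariant chain gene Cd74 in each quadriceps library (points; grey sedentary, red treadmill), with the mean and SD of each group of 3 as lines. All +0h libraries of the ZT0 session are above their sedentary ZT0 controls, while those of the ZT12 session overlap with the sedentary ZT12 libraries, of which replicate 1 is the highest.

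The +0h responses of both sessions were then set against each other by an interaction contrast. No member passed in edgeR's quasi-likelihood test or in DESeq2, and neither did any gene in the edgeR test (0.00% of 15097). The difference, ZT12 session minus ZT0 session, was negative for 31 of the 32 members with a median of -0.55, beside 47.8% negative over all genes. It draws on the same sedentary ZT0 libraries, whose mean member levels were 2.376, 2.616 and 2.455 log2 CPM. An unadjusted p under 0.05 was found for 10 members, all negative, beside 12.7% of all genes in either direction. All 6 antigen presentation genes were among the 10, from -0.86 for Cd86 to -1.31 for Tap1, with adjusted p from 0.258 to 0.362. Without +0h ZT0 replicate 2, H2-Eb1 (-1.14, adjusted p = 0.0468) and Tap1 (-1.57, adjusted p = 0.0406) passed, beside 322 of 15281 genes. The 10 adipocyte markers differed in the same direction, with a median of -3.32. With the adipocyte score in the edgeR fit, 528 of 15097 genes had an unadjusted p under 0.05, against 1912 without it. No gene passed in that fit, and the members' count of unadjusted p under 0.05 there is not given.

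At 3 h after the run the signal gene Ccl2 and Lyve1 had risen after the ZT0 session, with sedentary ZT4 libraries as the control. The 2 calls were 6.25% of the 32 members, below the 13.6% of all genes that passed, and the members' median was 0.05. It was 0.23 without +3h ZT0 replicate 3 and 0.16 without sedentary ZT4 replicate 3, and ran from -0.07 to 0.23 over the 6 libraries left out in turn. Against sedentary muscle at ZT0, the start of the session, the median was 0.33 and Ccr2 (0.79) and Cd14 (1.22) passed as well. Ccl2 read 6.69, 2.18 and 0.703 CPM at +3h and 0.245, 0.465 and 0.471 CPM in sedentary muscle. Every +3h library was above every control, but they spanned a wide range and the mean of 3.19 carried an SD of 3.12 (n = 3). The log2 fold change was 3.04 ± 0.61 (SE, adjusted p = 0.00267); it stayed past the threshold without any single library, with values from 1.92 to 3.51, and missed it in a fit of these 6 libraries alone (adjusted p = 0.120).

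The +3h libraries lay above all controls for 4 members, Ccl2, Ccr2, Lyve1 and Cd14, beside 14.9% of all genes. Ccr2 read 4.55, 3.07 and 2.92 CPM at +3h and 1.94, 2.23 and 2.50 CPM in sedentary muscle, without overlap, and did not pass (0.66 ± 0.24, SE, adjusted p = 0.0754). Lyve1 read 17.3, 12.96 and 10.2 CPM against 6.67, 8.54 and 8.64 CPM. Its groups did not overlap either, with a log2 fold change of 0.76 ± 0.24 (SE, adjusted p = 0.0407) that held only without +3h ZT0 replicate 3, the library low over most members; without any other library the adjusted p was between 0.0751 and 0.175. Without that same replicate Fcgr2b, an inhibitory Fc receptor gene, passed as well (0.69, adjusted p = 0.0470). Cd14 read 4.60, 4.65 and 2.75 CPM against 2.21, 2.17 and 2.52 CPM, a log2 fold change of 0.80 (adjusted p = 0.121). The antigen presentation genes lay between -0.32 for Tap1 and 0.07 for H2-Aa, the C1q genes between -0.06 and 0.17, and the leukocyte genes between -0.09 and 0.31, with no call.

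Chemokine genes outside the list rose beside Ccl2. Of 27 chemokines and cytokines tested 4 rose, namely Cxcl10 (4.02 ± 0.84, SE), Ccl9 (1.52 ± 0.30), Ccl6 (1.07) and the antagonist gene Il1rn (1.96), and Ptgs2 fell (-2.33). Cxcl10 varied as widely as Ccl2, with 2.48 ± 2.90 CPM (SD, n = 3) at +3h. Other risers were Tlr4 (1.04 ± 0.21), the lipopolysaccharide receptor gene that works with Cd14, Msr1 (1.20), a scavenger receptor gene, and Ifi30 (1.15). Cd83, which was higher at +0h, was lower at +3h (-1.41 ± 0.26). Neutrophil markers summed to between 4.56 and 6.55 CPM against 7.51 to 8.42 CPM in these controls.

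In the ZT12 session, +3h against sedentary ZT16, Cd14 rose and Adgre1 fell, 2 of 32 members beside 17.2% of all genes. Cd14 read 3.95, 8.80 and 4.54 CPM at +3h and 3.01, 2.10 and 2.98 CPM in sedentary muscle. The groups did not overlap, as was the case for 2 members, Cd14 and Cd86, beside 32.9% of all genes, and the log2 fold change was 1.10 ± 0.32 (SE, adjusted p = 0.0237). Both libraries that stood apart bear on it, since without +3h ZT12 replicate 2 it was 0.66 (adjusted p = 0.190) and without sedentary ZT16 replicate 2 it was 0.94 (adjusted p = 0.1002). Adgre1 read 2.83, 5.27 and 3.25 CPM against 6.88, 4.62 and 7.16 CPM. The groups overlapped through those same libraries, and the log2 fold change of -0.72 ± 0.23 (SE, adjusted p = 0.0336) did not pass without +3h ZT12 replicate 1 (-0.55) or 3 (-0.62) or without sedentary ZT16 replicate 1 (-0.64) or 3 (-0.60).

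The other members gave no call in the ZT12 session at +3h. Ccl2 read 0.811, 0.501 and 0.897 CPM against 0.520, 0.344 and 0.371 CPM (0.85, adjusted p = 0.409), with overlap. Cd86 was lower in every +3h library, at 0.603, 0.641 and 0.510 CPM against 1.07, 0.712 and 0.999 CPM, and did not pass (-0.66, adjusted p = 0.120). The class II genes and Cd74 lay between -0.06 and 0.06, and the members' median was -0.01. It was -0.25 without +3h ZT12 replicate 2 and -0.12 without sedentary ZT16 replicate 2, and ran up to 0.11 without +3h ZT12 replicate 1. Against sedentary muscle at ZT12, the start of the session, Adgre1 did not pass, while Fcgr3 (0.70) and Lyve1 (1.14) were higher and Cd86 (-1.08) and Tap1 (-0.84) lower in that fit. Ifi30 (1.71 ± 0.21, SE), Tlr4 (1.08), Ccl9 (1.42), Ccl6 (1.22) and Cxcl10 (2.43) rose here too, and Cd83 (-1.36) fell. Of 6 neutrophil markers tested 2 rose; the 10 summed to between 4.13 and 9.07 CPM against 3.43 to 4.59 CPM, and their part in the Cd14 value was not tested. Between the sessions the +3h responses of the members did not pass as different in edgeR or in DESeq2, where 1.59% of all genes passed in edgeR. The lowest p was that of Ccl2 (-2.19 ± 0.87, SE, unadjusted p = 0.0218, adjusted p = 0.269), the only member with an unadjusted p under 0.05.

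**Figure D4:**
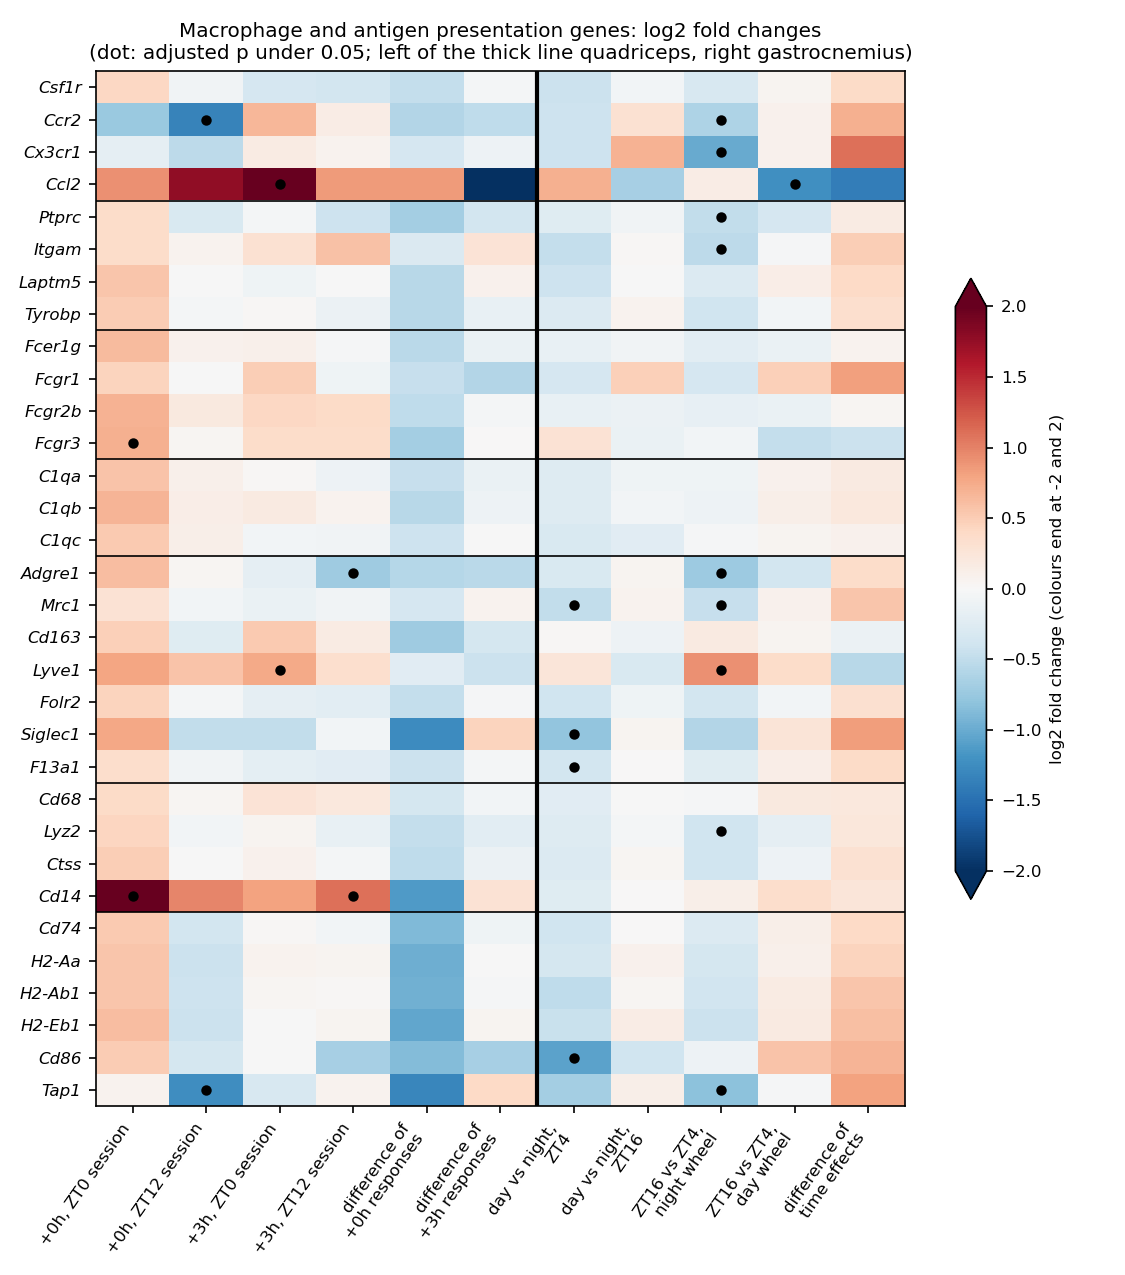
Log2 fold changes of the 32 genes (rows, grouped by role) in 11 comparisons (columns); red is higher and blue lower in the group named first or in the later difference, colours end at -2 and 2, and a black dot marks an adjusted p under 0.05. The ZT0 session at +0h is red for 30 of 32 genes, while day against night wheel at ZT4 and ZT16 against ZT4 in night wheel mice are each blue for 28 of 32.

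Sedentary muscle varied with the time of day in 2 of the 32 members, Lyve1 and Cd163, where 17.1% of all genes passed the joint test over 4 times. Lyve1 read 6.45, 9.71 and 7.34 CPM at ZT0, 6.67, 8.54 and 8.64 at ZT4, 9.34, 10.9 and 9.90 at ZT12, and 23.6, 13.2 and 15.8 at ZT16. The ZT16 libraries were above all 9 others, and the ZT0 and ZT4 libraries overlapped. The highest and lowest group differed by 1.16 on the log2 scale (adjusted p = 0.00371), a call kept without any single library. Cd163, which encodes the haemoglobin scavenger receptor, read 10.045, 11.3 and 9.89 CPM at ZT0, 10.2, 10.96 and 13.6 at ZT4, 17.1, 21.4 and 14.9 at ZT12, and 24.4, 14.4 and 20.2 at ZT16. All 6 libraries of ZT12 and ZT16 were above all 6 of ZT0 and ZT4. The spread between groups was 0.92 on the log2 scale (adjusted p = 0.0188), and in the fit that carried an adipocyte score it was 0.85 and did not pass (adjusted p = 0.0535). Adipocyte markers had median sums of 1466 CPM at ZT0, 1951 at ZT4, 5052 at ZT12 and 1956 at ZT16, and 2 of 10 passed the joint test. Of 9 endothelial markers 6 passed it, with median sums of 371 CPM at ZT0, 374 at ZT4, 266 at ZT12 and 315 at ZT16. The part of the endothelial markers in the members' values was not tested.

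Next in order came Cx3cr1 (0.89, adjusted p = 0.0717), Tap1 (0.91, adjusted p = 0.0820) and C1qa (0.69, adjusted p = 0.106). Cx3cr1 read 0.663, 0.658 and 0.652 CPM at ZT4 and 0.228, 0.491 and 0.328 CPM at ZT16, and without sedentary ZT16 replicate 2 it passed (1.23, adjusted p = 0.0221). The class II genes differed between groups by 0.36 to 0.44 and none passed. Among other genes, Cebpb (1.14), Axl (0.59) and the Csf1r ligand gene Il34 (0.60) varied, as did the Cx3cr1 ligand gene Cx3cl1 (1.57).

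**Figure D5:**
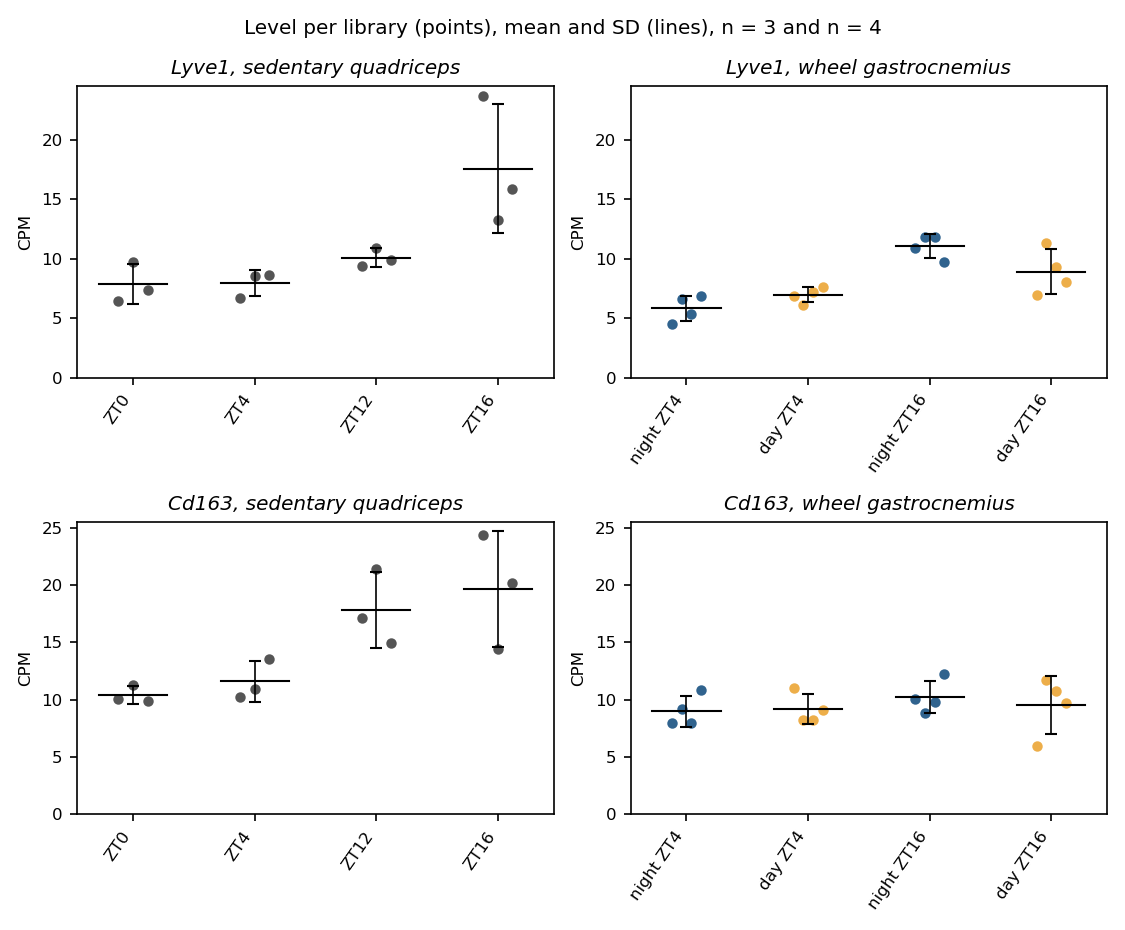
CPM (vertical axes) of Lyve1 and Cd163 in each library (points; grey sedentary, blue night wheel, orange day wheel), with the mean and SD as lines, n = 3 for quadriceps and n = 4 for gastrocnemius. Lyve1 is higher at ZT16 than at ZT4 in sedentary quadriceps and in night wheel gastrocnemius without overlap, while Cd163 separates the times in quadriceps and overlaps in gastrocnemius.

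In gastrocnemius, ZT16 was set against ZT4 within each wheel schedule. Night wheel mice had the wheel at ZT16 and not at ZT4, and day wheel mice the reverse. Time of day and current wheel access therefore cannot be told apart in either contrast, and no gastrocnemius group was sedentary. In night wheel mice at ZT16 against ZT4, Lyve1 rose and 8 members fell: Ccr2, Cx3cr1, Ptprc, Itgam, Adgre1, Mrc1, Lyz2 and Tap1. The 9 calls compare with 18.8% of all genes, and 28 of the 32 fold changes were negative, beside 48.5% of all genes, with a median of -0.33. Groups did not overlap for 9 members, beside 21.3% of all genes.

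Lyve1 read 10.9, 11.8, 11.8 and 9.68 CPM at ZT16 and 4.49, 6.57, 5.34 and 6.82 CPM at ZT4. The groups were well apart, with a log2 fold change of 0.92 ± 0.14 (SE, adjusted p = 0.000265). Adgre1 went the other way, with 2.37, 2.85, 2.35 and 2.84 CPM at ZT16 and 4.42, 4.17, 4.36 and 4.36 CPM at ZT4, a fold change of -0.73 ± 0.18 (SE, adjusted p = 0.00927). These 2 calls held without any single library. Which cells of the muscle gave the Lyve1 values was not tested. Ptprc read 1.84, 1.93, 1.91 and 1.93 CPM against 3.10, 2.79, 2.68 and 2.23 CPM. It did not overlap either (-0.50 ± 0.14, SE, adjusted p = 0.0168) and failed only without night wheel ZT4 replicate 1 (adjusted p = 0.0606).

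Ccr2 read 1.29, 1.84, 1.23 and 1.56 CPM at ZT16 and 2.08, 2.38, 2.09 and 2.56 CPM at ZT4 (-0.62 ± 0.20, SE, adjusted p = 0.0326). Cx3cr1 read 0.313, 0.257, 0.395 and 0.308 CPM against 0.694, 0.751, 0.362 and 0.738 CPM (-1.01 ± 0.29, SE, adjusted p = 0.0202). Ccr2 was lower in every ZT16 library, and Cx3cr1 was lower but for night wheel ZT4 replicate 3, which lay within the ZT16 range. Tap1 read 4.12, 3.42, 2.15 and 2.71 CPM against 5.88, 6.51, 5.96 and 3.85 CPM, a fold change of -0.83 ± 0.24 (SE, adjusted p = 0.0271) with overlap at ZT4 replicate 4. Itgam, the integrin chain CD11b of myeloid cells, read 2.83, 2.59, 2.21 and 2.76 CPM against 3.56, 3.92, 3.70 and 3.81 CPM (-0.52, adjusted p = 0.0334). Mrc1 read 10.95, 9.76, 10.4 and 10.3 CPM against 13.4, 13.6, 15.1 and 15.0 CPM (-0.47, adjusted p = 0.0358), and Lyz2 31.3, 29.7, 35.4 and 34.4 against 40.5, 43.0, 41.0 and 48.8 CPM (-0.41, adjusted p = 0.0323). None of these 3 genes overlapped between times. These 6 calls are close to the threshold, since each was lost when some library was left out, from 3 of the 8 for Cx3cr1 to all 8 for Mrc1, with adjusted p no higher than 0.0958. Mrc1 was also lost with no filter, with the replicate numbers as a block and with the adipocyte score (adjusted p from 0.0571 to 0.0664), and Lyz2 with no filter (adjusted p = 0.0531).

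The C1q genes did not pass (-0.09 to -0.03), nor did the Fc receptor genes (-0.34 to -0.05) or the class II genes (-0.42 to -0.35). Of the other lists, Clec7a (-1.79), Csf2rb (-1.12), a cytokine receptor chain gene, and Cx3cl1 (-0.69) fell, while Cebpb (1.50) and Il34 (0.51) rose. Of 9 endothelial markers 4 fell, with sums from 251.0 to 318.7 CPM at ZT16 against 323.2 to 354.4 CPM, and neutrophil markers summed to between 2.74 and 3.84 CPM against 5.75 to 7.25 CPM. The part of those cells in the members' values was not tested.

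In the day wheel mice the same contrast gave 1 call, Ccl2, which fell, beside 14.9% of all genes. Ccl2 read 0.219, 0.236, 0.290 and 0.199 CPM at ZT16 and 0.291, 0.369, 0.766 and 0.825 CPM at ZT4. The groups did not overlap, although their nearest values were 0.290 and 0.291 CPM, and the fold change of -1.23 ± 0.34 (SE, adjusted p = 0.0202) did not pass without day wheel ZT4 replicate 3 or 4 or ZT16 replicate 4 (adjusted p at most 0.0802). Lyve1 read 6.96, 11.3, 9.31 and 7.99 CPM at ZT16 and 6.88, 6.09, 7.20 and 7.57 CPM at ZT4, with overlap (0.36, adjusted p = 0.0991). Without day wheel ZT16 replicate 1, the library that stood apart, 4 members passed: Ccl2 (-1.20) fell and Lyve1 (0.46, adjusted p = 0.0374), the transglutaminase gene F13a1 (0.26, adjusted p = 0.0322) and Cd14 (0.45, adjusted p = 0.0480) rose. Over all genes, 1693 of 14652 passed in that fit.

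The difference of these time effects, day wheel minus night wheel, did not pass for any member in edgeR, where 9.74% of all genes passed, and for 1, Lyve1 (-0.57, adjusted p = 0.0456), in DESeq2. In edgeR 9 members had an unadjusted p under 0.05, beside 23.3% of all genes, and 28 of 32 differences were positive, beside 51.8% of all genes, with a median of 0.35. Without day wheel ZT16 replicate 1 there were 8 calls, all positive: Mrc1 (0.71, adjusted p = 0.00208), F13a1 (0.51), Laptm5 (0.57), Ccr2 (0.89), Lyz2 (0.36), Itgam (0.68), Siglec1 (1.04) and Csf1r (0.54). Over all genes, 1484 of 14652 passed without that library. The number of calls, 0 or 8, rested on that library, while the median was 0.52 without it and between 0.24 and 0.52 over the 16 libraries left out in turn. With all libraries Tlr4 (-1.14 ± 0.21, SE), Csf2rb (1.34), Irf8 (0.67) and Cebpb (-1.28) passed as different.

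Access to the wheel by day instead of by night was then compared at a fixed time, with the same night wheel ZT4 libraries that served the time contrast above. At ZT4 only day wheel mice had the wheel, and at ZT16 only night wheel mice. Schedule and current wheel access cannot be told apart in these contrasts either. At ZT4, 4 members were lower in day wheel mice: Cd86, Siglec1, Mrc1 and F13a1, where 13.1% of all genes passed. Fold changes were negative for 28 of the 32 with a median of -0.32, where 51.7% of all genes were negative. A fit of these 8 libraries alone called 12 members, beside 2171 of 14209 genes tested. DESeq2 called 8 members, beside 2284 of 14523 genes. All 4 day wheel libraries lay below all 4 night wheel ones for 14 members, beside 11.1% of all genes. Fcgr3 lay above, which makes 15 members whose groups did not overlap, beside 21.1%.

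Cd86 read 0.377, 0.339, 0.287 and 0.375 CPM in day wheel mice and 0.824, 0.563, 0.830 and 0.695 CPM in night wheel mice. Its groups were apart by a wide gap (-1.07 ± 0.31, SE, adjusted p = 0.0287). Siglec1 read 1.13, 0.929, 0.766 and 1.11 CPM against 1.50, 1.92, 1.40 and 1.94 CPM, also without overlap (-0.79 ± 0.23, SE, adjusted p = 0.0294). Mrc1 read 12.2, 9.71, 9.68 and 9.15 CPM against 13.4, 13.6, 15.1 and 15.0 CPM (-0.49 ± 0.14, SE, adjusted p = 0.0378). F13a1 read 15.7, 13.3, 13.8 and 15.46 CPM against 19.1, 17.4, 18.8 and 20.1 CPM (-0.37 ± 0.11, SE, adjusted p = 0.0431). Each was lower in every day wheel library, yet each call was lost without some library, from 4 of the 8 for Siglec1 to 7 for Mrc1 and F13a1, with adjusted p up to 0.115.

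Among the members that did not pass, Tap1 read 3.54, 4.26, 2.30 and 3.52 CPM against 5.88, 6.51, 5.96 and 3.85 CPM (-0.69, adjusted p = 0.0721), and Itgam had a fold change of -0.48 (adjusted p = 0.0630). The class II genes and Cd74 lay between -0.51 and -0.36 and the C1q genes between -0.31 and -0.26. Positive fold changes were found for Ccl2 (0.71, adjusted p = 0.158), Fcgr3 (0.29), Lyve1 (0.25) and Cd163 (0.02). Of 39 other antigen presentation genes 5 fell and 1 rose; those named by the smallest p were H2-M3 (-0.65), Tapbp (-0.27), Tap2 (-0.51), H2-T23 (-0.30) and Rfx5 (-0.31), which fell, and Ctsl (0.16), which rose. Of 44 other myeloid genes 8 fell, such as Clec7a (-1.56) and Csf2rb (-0.92), and 3 rose, among them Tlr4 (0.86 ± 0.14, SE) and Gpnmb (1.33). Beside them 6 of 9 endothelial markers fell, with sums from 261.6 to 291.9 CPM against 323.2 to 354.4 CPM, and fibroblast markers summed to between 710.0 and 991.7 CPM against 966.7 to 1273 CPM; their part was not tested.

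At ZT16 no member differed between day and night wheel mice in edgeR or in DESeq2, where 0.565% of all genes passed in edgeR. Fold changes were positive for 16 and negative for 16 of the 32 members, and 2 had an unadjusted p under 0.05, beside 13.4% of all genes: Cx3cr1 (0.69, adjusted p = 0.319) and Lyve1 (-0.31, adjusted p = 0.343). Cx3cr1 read 0.416, 0.453, 0.579 and 0.582 CPM in day wheel mice and 0.313, 0.257, 0.395 and 0.308 CPM in night wheel mice, the only member without overlap, beside 6.67% of all genes. Lyve1 read 6.96, 11.3, 9.31 and 7.99 CPM against 10.9, 11.8, 11.8 and 9.68 CPM, with overlap. Without day wheel ZT16 replicate 1 no member passed either, and the members' median moved from 0.00 to 0.14.

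Over all 12 comparisons 16 of the 32 members passed at least once. The share of all genes that did so was not computed, so this count has no background beside it. The other members were Csf1r, Laptm5, Tyrobp, Fcer1g, Fcgr1, Fcgr2b, C1qa, C1qb, C1qc, Folr2, Cd68, Ctss, Cd74, H2-Aa, H2-Ab1 and H2-Eb1. Of the 24 calls 7 held without any single library, and 5 of these also held in every other fit tried (RLE size factors, no filter, a replicate block, the adipocyte score, the compared libraries alone and DESeq2): Cd14 at +0h in the ZT0 session, Ccr2 at +0h in the ZT12 session, Lyve1 over the sedentary times, and Lyve1 and Adgre1 over time in night wheel mice.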

How the data were processed

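Gene-level estimated counts of 40 libraries were used, 24 of quadriceps and 16 of gastrocnemius, each sequenced on 2 lanes. The authors deposited estimated counts made with kallisto 0.46.2 after bcl2fastq 2.20.0.422, with GRCm38.p6 and mm10 named as builds, per the submitters' processing notes. For the step from transcripts to genes, the annotation was not given in the sources used here. Because kallisto divides reads shared by closely similar genes by a model, Lyz2, Fcgr2b, Fcgr3 and the H2 genes carry that uncertainty. The kit keeps strand, per the labels' protocols.

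Counts were added over both lanes and rounded to whole numbers. Of 23621 gene identifiers, 23614 matched a symbol, and the other 7 held 0.00139% of the counts. Totals ran from 27352875 to 79491649 per library, so low genes such as Ccl2, with counts down to 8, are the least precise. edgeR 4.0.16 was run in R 4.3.3 with TMM scaling, its expression filter with a minimum count of 10, and the robust quasi-likelihood test, fitted on all libraries of a muscle together, 15097 genes in quadriceps and 14523 in gastrocnemius. Adjusted p-values are Benjamini-Hochberg over all of those genes, and a gene is called at an adjusted p under 0.05. CPM values use the TMM library sizes, and ± after a fold change is its SE. The test script was checked on simulated counts.

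The labels give replicate numbers but no animal identifiers, and libraries of a group carry different tags. They were read as separate animals, and if they were not, the p-values measure technical spread only. Sedentary controls were sampled 0.5 h away from the treadmill groups they are set against. Alternatives tried were DESeq2 1.42.0, RLE size factors in place of TMM, no filter, a replicate block, the adipocyte score as a covariate, a control from when the session began, the compared libraries alone, and each library left out. Levels alone were also computed without TMM scaling.

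The members and the other gene lists were chosen with earlier results of these data known. All 32 members may be named. Values in every library are given for members that pass, up to 10 a comparison by the smallest p, and otherwise for up to 2 members of a role with the smallest p; a few further members are given for what adjoins them, chosen after their values were seen. Of each other list up to 6 genes a comparison with the smallest p are named. A gene of these lists that passed the test is not reported here by name, though counts over the lists include it. Promoter sequences are those of RefSeq in GRCm38.p6, and lengths for CPM per kb are unions of GENCODE M21 exons.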

Additional observations from a re-analysis of the deposited data

Results flagged for a closer look

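In gastrocnemius, with 4 libraries a group, 9 of 128 member levels had 1 library farther from the rest than Dixon's test allows at 95%, a distance that chance alone gives in about 1 in 20 groups. In day wheel ZT16 replicate 1, the library low over 31 members, Tyrobp was at 1.82 CPM and Fcer1g at 1.27 CPM, below the other 3 libraries. In day wheel mice at ZT4, Laptm5 was high in replicate 4 (6.39 CPM) and Adgre1 in replicate 1 (4.66 CPM). In night wheel mice at ZT16, Csf1r (18.4 CPM) and Cd68 (3.07 CPM) were high in replicate 4. In night wheel mice at ZT4, replicate 3 was low for Cx3cr1 (0.362 CPM) and high for Cd14 (1.94 CPM), and replicate 4 was high for Cd68 (3.502 CPM). The quadriceps groups hold 3 libraries each and were not tested in this way.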

How the results depend on the processing

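Of the 24 calls, 7 held without any single library and 12 in every other fit, and with RLE size factors no count of calls changed. The numbers of members called that moved by over 1.5 times were these. After the ZT0 session at +0h 1 was called with no filter, with the replicate block or with the adipocyte score, 12 with the compared libraries alone and 7 in DESeq2. Over all genes these fits called 835 of 19910, 928 of 15097, 599 of 15097, 529 of 14401 and 1447 of 15097, in that order. At +3h after ZT0 there were 4 (median 0.33) against the start of the session, 1 with no filter or the replicate block and 0 with the compared libraries alone. Beside them 2032 of 15097, 1815 of 19910, 1979 of 15097 and 1105 of 14334 genes passed, in that order. At +3h after ZT12 there were 5 against the start of the session, where Tap1 reversed to -0.84, and 0 with the compared libraries alone. Among all genes 2869 of 15097 and 1764 of 14496 passed in those fits. Over sedentary times there was 1 with the adipocyte score, beside 1772 of 15097 genes, and 4 in DESeq2, beside 3474 of 15097. For day against night wheel at ZT4 there were 2 with no filter, the replicate block or the adipocyte score, 12 with the compared libraries alone and 8 in DESeq2. All genes gave 1684 of 19594, 1793 of 14523, 1896 of 14523, 2171 of 14209 and 2284 of 14523, in that order. For time in day wheel mice there were 2 with the adipocyte score or in DESeq2, beside 2089 and 2415 of 14523 genes. For the difference of time effects there was 1 in DESeq2, beside 1670 of 14523 genes. Other counts moved less. In night wheel mice the 9 calls over time became 7 with no filter, 8 with the block, 10 in DESeq2 and 12 with the compared libraries alone, where Csf1r, F13a1 and H2-Eb1 were added. Those fits called 2475 of 19594, 2576 of 14523, 2932 of 14523 and 2295 of 14111 genes. After the ZT12 session at +0h, Tap1 was lost and Lyve1 added with the compared libraries alone, and Cd14 was added in DESeq2. With 1 library left out the calls ranged from 1 to 3, 1 to 2, 1 to 3 and 1 to 1 for the treadmill comparisons in the order +0h ZT0, +0h ZT12, +3h ZT0 and +3h ZT12, from 0 to 2 and 0 to 0 for the differences at +0h and +3h, and from 2 to 3 over sedentary times. They ranged from 0 to 4 and 0 to 0 for day against night wheel at ZT4 and ZT16, from 3 to 8 and 0 to 4 for time in night and day wheel mice, and from 0 to 8 for the difference of those. Counts over all genes also changed with the library left out and are not set beside these ranges. The members' medians stayed within the spread between libraries in all 108 such fits. That spread is wide: the pooled SD of a library's mean member level was 0.2484 log2 in quadriceps and 0.2177 in gastrocnemius. Small medians could change sign within it, as at +3h after ZT0 (-0.07 to 0.23) and after ZT12 (-0.25 to 0.11). Replicate numbers did not pair the libraries: over 28 pairs the correlation of same-numbered libraries ran from -0.38 to 0.23, and 9 correlated best with their own number; no comparison had every pair above 0.1. For day against night wheel at ZT4 each of the 4 pairs correlated best with its own number (0.118, 0.0233, 0.115 and 0.152), a hint from the data only, and there the block left out Mrc1 (adjusted p = 0.0678) and F13a1 (adjusted p = 0.0766). Apart from the calls above, the cause of these changes was not tested. Low counts limit Ccl2, Cx3cr1, Cd86 and Fcgr1 most, and the 3 libraries a group in quadriceps limit every test there.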
